A study of Homo sapiens with 6 samples.

Results

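The nuclear genes that encode subunits of oxidative phosphorylation complexes were followed in DLD1, a human cell line derived from a colorectal adenocarcinoma, with and without a short hairpin RNA (shRNA) directed at CDKL1. The genes were taken by symbol: those of complex I (NDUFA, NDUFB, NDUFC, NDUFS and NDUFV with a number), complex III (UQCR), complex IV (COX4 to COX8) and ATP synthase (ATP5). Each gene was read from 1 probe set with a single annotated symbol, the brightest over the 6 arrays, without regard to group. This gave 79 of 18132 measured genes, namely 35 of complex I, 8 of complex III, 17 of complex IV and 19 of ATP synthase, and no pseudogene was among them. One group of 3 samples had received lentivirus that expressed a control shRNA, and the other group of 3 had received lentivirus that expressed the CDKL1 shRNA. The 3 samples of each group are described as independent, without saying whether infections or cultures were separate. The p-values therefore reflect sample-to-sample spread, part of which may be technical. The labels describe a single cell line, do not tell hairpins apart and give no time after infection.

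Oxidative phosphorylation takes place in the inner mitochondrial membrane. Complex I accepts electrons from NADH, complex III passes them from ubiquinol to cytochrome c, and complex IV hands them to oxygen. All of these complexes pump protons, and ATP synthase uses the resulting gradient to make ATP. Most subunits are encoded in the nucleus, made in the cytosol and imported, and a small core is encoded by mitochondrial DNA. Many nuclear subunit genes carry promoter sites for the transcription factors NRF1, GABPA (of the ETS family) and YY1. Cells of the colon lining oxidise butyrate from bacteria in their mitochondria.

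Values are the deposited log2 expression values, normalised between arrays, on which a difference of 1 is a doubling. All 11 epithelial and intestinal marker genes were measured above the range of the background control probe sets (log2 2.97 to 4.92) in control arrays, among them EPCAM at 13.52 and CDX2 at 10.67. Of these, KRT20 rose (0.52) and VIL1 fell (-0.57). Means over the fibroblast markers were 4.89 to 5.07 in all arrays, over the leukocyte markers 5.26 to 5.37 and over the endothelial markers 5.54 to 5.63, with control means of 3, 3 and 2 genes within the background range. The leukocyte list's CD68 (0.39) and CD163 (0.65) rose, CD163 from a control mean of 4.56, within the background range, to 5.21. PTPRC lay within the background at 3.62 in control arrays, and the part of these genes in the results was not tested. CDKL1 itself lay within the background range, at 4.37 in control and 4.17 in CDKL1 shRNA arrays, with a log2 change of -0.19 (limma, adjusted p = 0.219). At that level the probe set does not show whether the knockdown worked, so group names follow the labels. For ACTB, the log2 signal of the 3' control probe set minus that of the 5' one, which reflects RNA quality, was 1.39 to 1.41 in control and 1.52 to 1.73 in CDKL1 shRNA arrays. The groups differed by 0.198 (exact two-sided permutation p = 0.1, the smallest that 3 against 3 allow). For GAPDH the same measure was 0.19 to 0.22 in control and 0.25 to 0.30 in CDKL1 shRNA arrays (exact two-sided permutation p = 0.1). A fit with the ACTB measure as a covariate is given with the counts.

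Transcripts of the oxidative phosphorylation subunits differed little between CDKL1 shRNA and control cells. All 79 log2 changes lay between -0.18 and 0.29, so 0 genes changed by the 0.32 that a 25% rise or a 20% fall makes, a size that 1177 of the 18132 genes reached. The median log2 change was -0.02 over the 79 genes and -0.01 over all genes, and 46 of the 79 had a negative and 33 a positive sign. The 95% interval of the change lay entirely inside these limits for 74 of the 79 genes, against 70.2% of all genes. The remaining 5 were the risen COX7A2L, whose interval reached 0.39, NDUFA5 (0.05 to 0.33) and the noisier UQCRHL, COX4I2 and ATP5MGL. In such bulk samples a lower level in every cell and a loss of some expressing cells cannot be told apart, and a change shared by most genes would be removed by the normalisation.

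**Figure D1:**
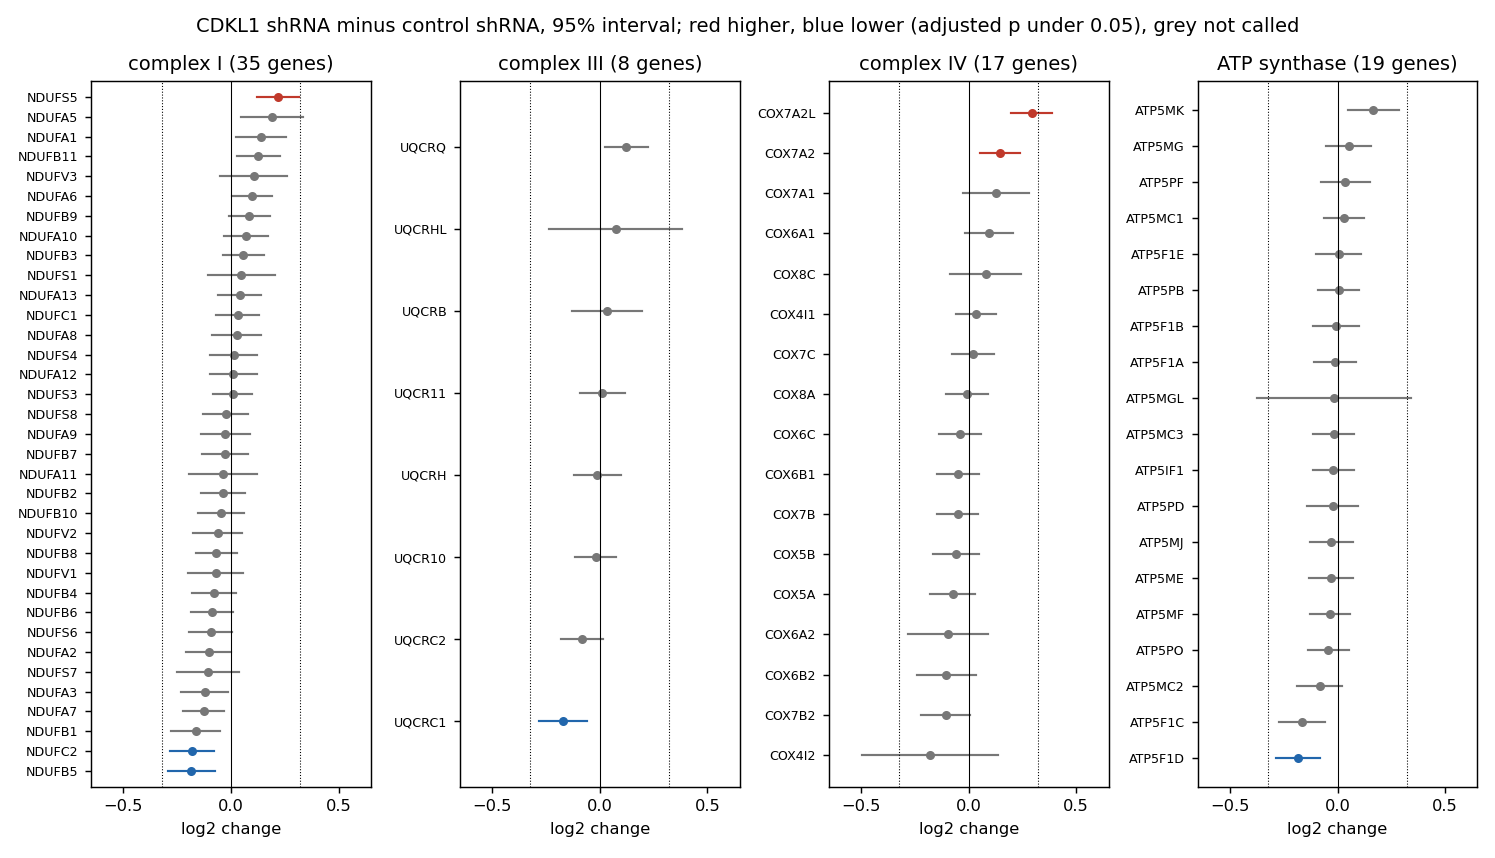
The log2 change (CDKL1 shRNA minus control shRNA, horizontal axis) is plotted for each of the 79 genes, in 1 panel per complex, as a point with its 95% interval from limma. Dotted lines mark a 25% rise and a 20% fall, and the 3 genes in red and 4 in blue passed an adjusted p of 0.05; every point lies between the dotted lines.

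**Figure D2:**
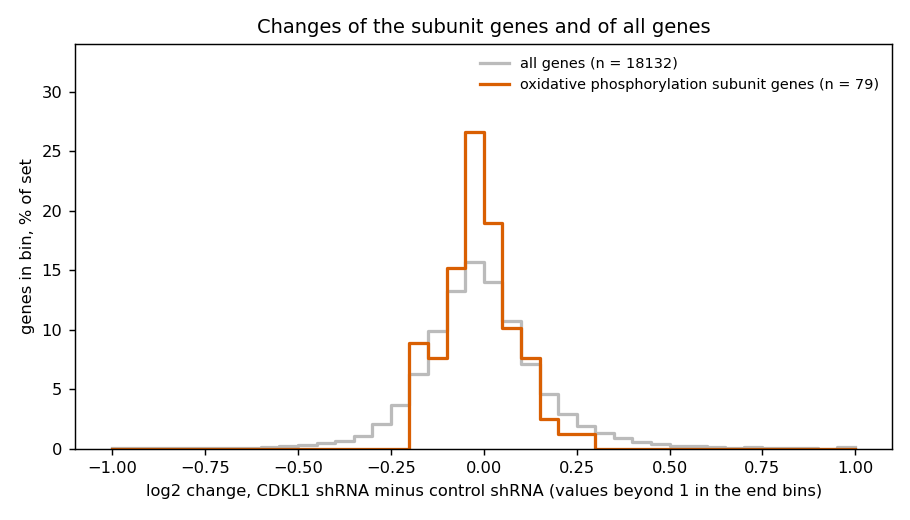
The share of genes (vertical axis, percent of each set) is plotted in log2 change bins that are 0.05 wide, for the 79 subunit genes and for all 18132 genes. The subunit genes end at -0.18 and 0.29, inside the wider spread of all genes.

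Of the 79 genes, 3 rose and 4 fell at an adjusted p under 0.05 (limma, Benjamini-Hochberg over all genes), and 72 did not pass. Over all genes 16.8% passed, 8.97% higher and 7.79% lower. An unadjusted p under 0.05 (limma) was reached by 17 of the 79 genes and by 29.8% of all genes. The groups did not overlap for 36 of the 79 genes (45.6%, 16 higher and 20 lower in CDKL1 shRNA arrays), beside 35.7% of all genes. The 79 genes were bright, with a median level of 11.92 against 7.28 over all genes. Among genes brighter than the median gene, 27.8% passed in the same fit and 55.1% had groups that did not overlap. The risen genes were COX7A2L, NDUFS5 and COX7A2, and the fallen genes were NDUFB5, NDUFC2, UQCRC1 and ATP5F1D, so each of the 4 complexes held at least 1 called gene. After each array's median was subtracted 2 genes rose and 0 fell, beside 1597 risen and 1173 fallen among all 18132 genes. After a further quantile normalisation 3 rose and 6 fell, beside 1542 risen and 1689 fallen among all genes.

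The count of called genes moved with how the spread was estimated and with the arrays used. The median SE of the 79 changes was 0.044, and limma shrinks each gene's variance towards 1 value shared by bright and dim genes. When that value was allowed to follow the level, an alternative chosen after seeing the data, 21 of the 79 genes passed (11 higher, 10 lower, 7 of them those named), beside 4193 of all 18132 genes. When only genes brighter than the median gene were fitted, 17 of 73 passed, beside 3991 of 9066. In both fits the called changes still lay between -0.18 and 0.29. The count was 3 without control replicate 1, 1 without control replicate 2 or 3, and 2 when CDKL1 shRNA replicate 1 or 2 was left out. Leaving out CDKL1 shRNA replicate 3 gave 1. With the ACTB covariate 0 of the 79 passed and 7 had an unadjusted p under 0.05. Over all 18132 genes 219 passed in that fit and 3501 had an unadjusted p under 0.05. The ACTB values of the groups did not overlap, so this fit can separate group from ACTB signal only weakly. The SE of COX7A2L was 0.079 in it, against 0.040 without the covariate.

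Some promoters of these genes hold letters bound by known regulators of respiratory genes, which the choice by symbol did not use. At least 1 stretch per complex is printed to show them, with 2 for complex I. RefSeq promoters (GRCh38.p14, 250 bases before to 50 after the start) matched 65 of the 79 genes, with 78 promoters in all, since some genes have several starts. On either strand, CCGGAAG, bound by ETS family factors such as GABPA, was found in 20 of these 78 promoters (25.6%) and in 10.3% of all 35116 promoters. The NRF1 motif, whose letters are the capitals in the NDUFB4 stretch, was found in 3 (3.85%, against 1.24% of all) and a YY1 motif in 3 (3.85%, against 0.849%). Matches of different motifs overlapped in 0 cases. The stretches below lie entirely before the start and read along the gene's strand, with the matched letters in capitals. The first holds the NRF1 motif and the others the ETS letters, in NDUFS1 and ATP5F1A as the reverse complement.
NDUFB4, complex I, chr3:120596157-120596206, + strand: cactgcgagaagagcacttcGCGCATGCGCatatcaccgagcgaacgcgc
NDUFS1, complex I, chr2:206159575-206159621, - strand: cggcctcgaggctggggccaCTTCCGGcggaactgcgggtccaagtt
UQCRQ, complex III, chr5:132866568-132866614, + strand: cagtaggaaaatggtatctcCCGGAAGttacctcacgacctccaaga
COX5B, complex IV, chr2:97646005-97646051, + strand: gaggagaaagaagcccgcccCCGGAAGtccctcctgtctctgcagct
ATP5F1A, ATP synthase, chr18:46098318-46098364, - strand: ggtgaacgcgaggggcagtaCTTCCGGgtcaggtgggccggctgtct

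The 19 genes with the ETS letters had log2 changes of -0.06 to 0.17 with a median of 0.01. Of them 0 passed (limma), beside 7 of the 79 and 16.8% of all genes. An unadjusted p under 0.05 was reached by 3 of them, 17 of the 79 and 29.8% of all genes. The 79 are not a like set for the 19, since only 65 of them had a matched promoter. The called genes NDUFS5, NDUFB5, NDUFC2 and ATP5F1D had none and could not be among the 19. Whether genes with these letters differ from the others was not tested. The 3 genes with the NRF1 motif were NDUFB4 (-0.08), NDUFA8 (0.03) and ATP5F1C (-0.16). Of the 7 called genes, the promoters of COX7A2L, COX7A2 and UQCRC1 were in the table. UQCRC1 held the YY1 motif, starting 23 bases after its start, and NDUFS4 and NDUFA9 also held it after the start. COX7A2L and COX7A2 held none of the motifs in this window.

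The catalytic core of complex I did not move beyond its spread. The 6 measured core subunits, which carry the flavin and iron-sulfur clusters or shape the ubiquinone site, had log2 changes of -0.11 to 0.05. None of the 6 passed, 0 had an unadjusted p under 0.05, and the groups overlapped in each of them. NDUFS1, the largest iron-sulfur subunit, read 10.17, 10.35 and 10.39 in control and 10.33, 10.33 and 10.39 in CDKL1 shRNA arrays. Its change was 0.05 (95% interval -0.11 to 0.20), and the lowest value was that of control replicate 1. NDUFV1, which binds NADH through its flavin, read 10.02, 9.96 and 9.94 in control and 9.82, 9.95 and 9.95 in CDKL1 shRNA arrays, a change of -0.07 (95% interval -0.20 to 0.06). NDUFS7 (-0.11), NDUFV2 (-0.06), NDUFS8 (-0.02) and NDUFS3 (0.01), the remaining core subunits, also had intervals that included 0.

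The called genes of complex I were accessory subunits, which surround the core and serve its assembly and stability. Among 29 accessory subunits 1 rose, 2 fell and 26 did not pass, with a median log2 change of -0.03. NDUFS5, an accessory subunit on the intermembrane space side, read 12.02, 11.97 and 11.98 in control and 12.22, 12.19 and 12.22 in CDKL1 shRNA arrays. Every CDKL1 shRNA array lay above every control array. It rose by 0.22 on the log2 scale (SE 0.041, limma adjusted p = 0.0123), or by 16.3%. The call was lost without control replicate 2 (limma adjusted p = 0.0515), control replicate 3 (0.051) or CDKL1 shRNA replicate 3 (0.0528), although the change stayed at 0.21 to 0.23. NDUFS5 has 1 probe set, with the suffix _x, which can bind related transcripts.

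NDUFB5, an accessory subunit of the membrane arm, read 11.16, 11.26 and 11.22 in control and 11.01, 11.07 and 11.01 in CDKL1 shRNA arrays. The groups were apart, and it fell by 0.18 (SE 0.046, limma adjusted p = 0.0348). Its other probe set gave -0.12 (SE 0.09). NDUFC2, also of the membrane arm, read 11.40, 11.43 and 11.36 in control and 11.24, 11.24 and 11.17 in CDKL1 shRNA arrays, without overlap, and it fell by 0.18 (SE 0.044, limma adjusted p = 0.0319). Its other 2 probe sets, at means of 6.37 and 4.98, had positive signs (0.10 and 0.15), and the mean of all 3 gave 0.02. NDUFB5 was called in 1 of 6 fits with 1 array left out, that without control replicate 1, and NDUFC2 in 0 of 6, with changes of -0.21 to -0.16 and -0.20 to -0.16.

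Accessory subunits that did not pass went both ways, as in the 6 given next. NDUFB1 (-0.16, adjusted p = 0.0587), NDUFA7 (-0.13, adjusted p = 0.0794) and NDUFA3 (-0.12, adjusted p = 0.127) had lower values in every CDKL1 shRNA array than in any control array (limma). NDUFA5 (0.19, adjusted p = 0.0771), NDUFB11 (0.13, adjusted p = 0.0902) and NDUFA1 (0.14, adjusted p = 0.103) had higher values in every CDKL1 shRNA array (limma). These 6 genes passed in the fit whose variance followed the level, in which 6 genes of complex I were higher and 7 lower. Across complex I as a whole the median log2 change was -0.03 and the groups were apart for 18 of 35 genes (51.4%), 8 higher and 10 lower. They were apart for 35.7% of all genes and for 55.1% of genes brighter than the median gene.

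Complex III had 1 called gene among 8, and that gene fell; the median log2 change of the complex was 0.00. UQCRC1, a matrix-side core protein of the complex, read 11.57, 11.47 and 11.56 in control and 11.33, 11.40 and 11.37 in CDKL1 shRNA arrays. The groups did not overlap, and it fell by 0.17 (SE 0.047, limma adjusted p = 0.0487), to a level 11.2% lower. The call lay at the threshold and was lost without any 1 of the arrays, with changes of -0.20 to -0.15. Its other probe sets, at means of 9.47 and 6.62, were also lower, by -0.32 (SE 0.079) and -0.31 (SE 0.062). UQCRC2, the partner core protein, read 11.96, 11.95 and 11.99 in control and 11.85, 11.90 and 11.90 in CDKL1 shRNA arrays, apart but with a change of only -0.08 (95% interval -0.18 to 0.02). Of the 5 small subunits none passed, and 1, UQCRQ, had an unadjusted p under 0.05.

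UQCRQ, a small subunit that touches cytochrome b, read 13.07, 13.05 and 13.04 in control and 13.13, 13.20 and 13.20 in CDKL1 shRNA arrays. Its values were apart with a change of 0.12 (SE 0.042, limma adjusted p = 0.0953). UQCRB, which binds near the ubiquinone site, differed between its probe sets and was singled out after its values were seen. The brightest, at a mean of 10.70, had a log2 change of 0.03. Its other 3, at means of 6.83 to 7.19, fell by 0.46, 0.40 and 0.28 (limma over all probe sets, adjusted p = 0.0162, 0.0123 and 0.0475). The brightest carries the suffix _x and may bind related transcripts, so the direction for UQCRB is not settled by this array. UQCRHL, an intronless relative of the hinge protein gene UQCRH, ranged from 10.76 to 11.31 in control arrays alone, a wider spread than between the groups.

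In complex IV the 2 called genes were relatives of 1 subunit family, COX7A. COX7A2L encodes a COX7A-like protein that joins complex III to complex IV in respiratory supercomplexes. It read 11.61, 11.62 and 11.64 in control and 11.89, 11.93 and 11.93 in CDKL1 shRNA arrays, so that the gap between the groups was wider than the range within either. It rose by 0.29 (SE 0.040, 95% interval 0.20 to 0.39, limma adjusted p = 0.00369), or by 22.5%. Its other probe set rose by 0.26 (SE 0.048). COX7A2L was the only 1 of the 7 genes whose call held in all 6 fits with 1 array left out, with changes of 0.28 to 0.31. With the ACTB covariate its change was 0.28 and it did not pass (limma adjusted p = 0.15).

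COX7A2, the form of subunit VIIa found in most tissues, read 13.08, 13.06 and 13.05 in control and 13.21, 13.20 and 13.21 in CDKL1 shRNA arrays. It rose by 0.14 (SE 0.039, limma adjusted p = 0.0463), without overlap of the groups. The call was lost without any 1 of the arrays, with changes of 0.14 to 0.16, and each of its 5 probe sets had a change of 0.00 or above. Among the 10 general or single-copy subunits 1 rose, COX7A2, and 9 did not pass. COX4I1, the general form of the regulatory subunit IV, read 12.79, 12.81 and 12.81 in control and 12.84, 12.84 and 12.83 in CDKL1 shRNA arrays. Its groups were apart by a very small margin, with a change of 0.03 (95% interval -0.06 to 0.13). COX6A1 read 13.69, 13.77 and 13.78 in control and 13.80, 13.86 and 13.87 in CDKL1 shRNA arrays, also apart, with a change of 0.09 (95% interval -0.02 to 0.20).

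The 6 tissue-restricted forms of complex IV subunits, among them the hypoxia-linked COX4I2 and the muscle forms COX6A2 and COX7A1, gave no call. None had an unadjusted p under 0.05, and the groups overlapped in each. COX4I2 read 5.50, 5.56 and 5.47 in control and 5.36, 5.61 and 5.02 in CDKL1 shRNA arrays. Its change of -0.18 (95% interval -0.50 to 0.14) rested on the low value of CDKL1 shRNA replicate 3. COX7A1, COX7B2 and COX8C had means within the background range, so their presence could not be judged. COXFA4, formerly NDUFA4 and now counted with complex IV, did not match the symbols used and had a change of 0.09 (limma adjusted p = 0.205). Its relative COXFA4L2 had a change of -0.17 (limma adjusted p = 0.144).

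**Figure D3:**
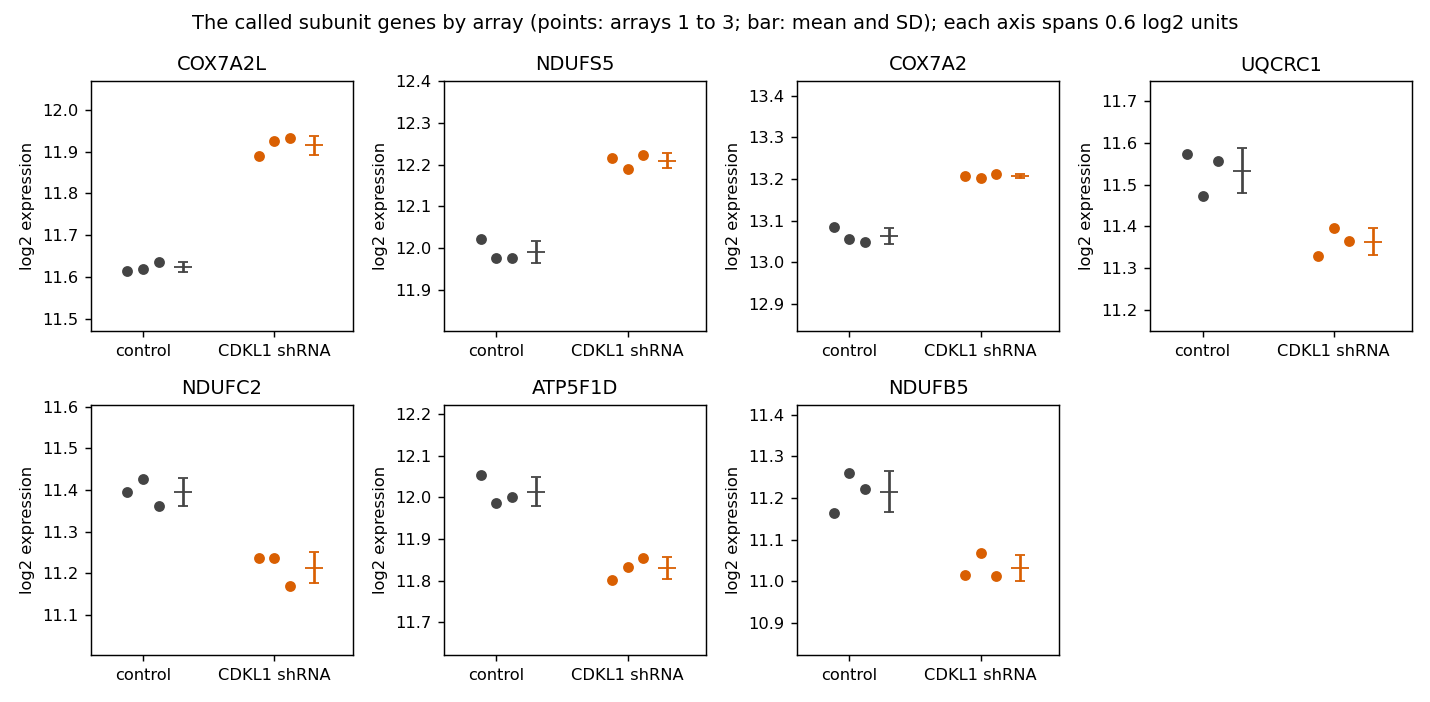
Log2 expression (vertical axis) is plotted for the 7 called subunit genes in the 3 control and 3 CDKL1 shRNA arrays, with the mean and SD of each group beside the points. Each axis spans 0.6 log2 units, and in every panel the groups are apart, by most in COX7A2L.

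Most genes of ATP synthase differed little. Of its 19 genes 1 fell, 0 rose and 18 did not pass, and the median log2 change was -0.02. ATP5F1B, the catalytic beta subunit, read 13.53, 13.41 and 13.47 in control and 13.47, 13.46 and 13.47 in CDKL1 shRNA arrays. Its change was -0.01 (95% interval -0.12 to 0.10). ATP5F1A, the alpha subunit, read 13.41, 13.36 and 13.36 in control and 13.39, 13.37 and 13.33 in CDKL1 shRNA arrays, with a change of -0.01 (95% interval -0.11 to 0.09). The groups overlapped for both of these genes of the catalytic head.

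The called gene of this complex was ATP5F1D, the delta subunit of the central stalk, which turns inside the head. It read 12.05 and 11.99 in control replicates 1 and 2, with replicate 3 between them, and 11.80, 11.83 and 11.86 in CDKL1 shRNA arrays, without overlap. ATP5F1D fell by 0.18 (SE 0.043, limma adjusted p = 0.0278), to a level 11.9% lower. All 3 of its probe sets fell, by 0.18, 0.19 and 0.21, in the fit over all probe sets. The call was lost without any 1 of the arrays, with changes of -0.20 to -0.16. ATP5F1C, the gamma subunit of the stalk, was lower in every CDKL1 shRNA array and just missed the threshold (-0.16, SE 0.046, limma adjusted p = 0.0502). ATP5F1E, the epsilon subunit of the stalk, had a change of 0.00 (95% interval -0.10 to 0.11). Outside the stalk, ATP5MC2 (-0.08), ATP5PO (-0.04) and ATP5MF (-0.04) were lower in every CDKL1 shRNA array and did not pass. ATP5MK (0.17), ATP5MG (0.05) and ATP5MC1 (0.03) were higher in every CDKL1 shRNA array and did not pass either. Across ATP synthase the groups were apart for 8 of 19 genes (42.1%), 3 higher and 5 lower. They were apart for 35.7% of all genes and for 55.1% of genes brighter than the median gene.

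The 4 peripheral stalk genes, whose products hold the head still, had changes of -0.04 to 0.04, and the 3 c ring genes, whose product forms the rotor, had changes of -0.08 to 0.03. The 5 small membrane subunits ranged from -0.04 to 0.17, the highest of them ATP5MK, which read 12.87, 12.98 and 13.01 in control and 13.10, 13.14 and 13.12 in CDKL1 shRNA arrays. Its values were apart, with a change of 0.17 (SE 0.050, limma adjusted p = 0.0632). ATP5IF1, the inhibitor that stops ATP hydrolysis when the gradient fails, read 12.86, 12.86 and 12.83 in control and 12.81, 12.85 and 12.82 in CDKL1 shRNA arrays, with a change of -0.02 (95% interval -0.11 to 0.07). One further probe set of ATP5IF1, at a mean of 7.53, rose by 0.40 (limma over all probe sets, adjusted p = 0.00256), while its other 3 lay between -0.09 and -0.01.

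Over all 175 single-symbol probe sets of the 79 genes, 7 rose and 9 fell, beside 12.6% of all 49293 probe sets called in that fit. The 16 called probe sets belonged to 10 genes, and 0 genes had called probe sets in both directions. The called genes NDUFC2, NDUFB5 and COX7A2 were not among these 10. Their brightest probe sets had adjusted p = 0.0519, 0.055 and 0.0796 (limma over all probe sets). That of UQCRC1 did not pass either (0.074), while its dimmer ones did. Of 47 genes with more than 1 probe set, 19 had probe sets of both signs. The widest changes, from -0.46 to 0.55, came from dimmer probe sets, such as that of NDUFS7 at a mean of 5.68 (0.55, limma over all probe sets, adjusted p = 0.0103), whose 3 bright probe sets lay between -0.12 and -0.08. Likewise the dimmest of 5 NDUFS1 probe sets fell by 0.22 (limma over all probe sets, adjusted p = 0.044) while the other 4 lay between 0.00 and 0.05. These probe sets were singled out after their values were seen, and which transcripts the dim ones read was not tested.

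**Figure D4:**
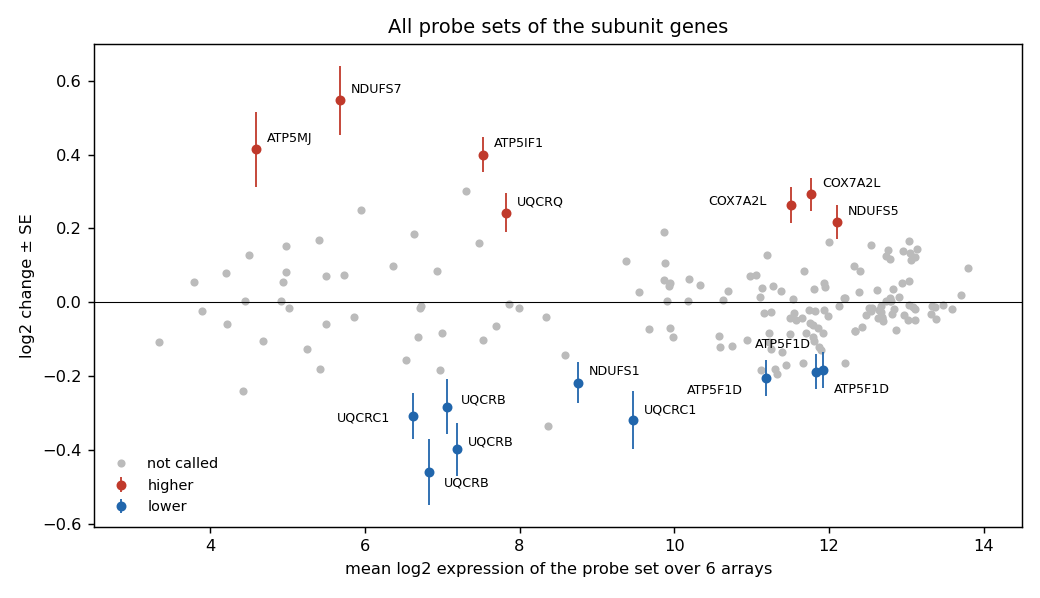
The log2 change of each of the 175 probe sets of the subunit genes is plotted against its mean log2 expression over the 6 arrays, with the SE drawn for called probe sets. Called changes larger than 0.3 in size came from probe sets with means under 10, while COX7A2L, NDUFS5 and ATP5F1D were called at means over 11.

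Genes that build, feed and regulate the respiratory chain were examined in lists beside the subunits, with the background of 16.8% of all genes called. Of 5 measured genes of complex II, CYC1 and cytochrome c, 1 rose. It was CYCS, the mobile carrier between complexes III and IV and an activator of caspases once released. CYCS read 13.10, 13.08 and 13.06 in control and 13.27, 13.35 and 13.33 in CDKL1 shRNA arrays, apart, and rose by 0.24 (SE 0.042, limma adjusted p = 0.0103). The complex II genes SDHA (-0.09), SDHC (0.02) and SDHD (-0.12) and the complex III gene CYC1 (-0.03) did not pass. The symbols of mitochondrially encoded subunits matched 0 genes, so those subunits were not analysed here.

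Of 48 assembly factors 6 rose, 5 fell and 37 did not pass, with a median log2 change of 0.02. SURF1, which assembles complex IV, read 10.59, 10.60 and 10.65 in control and 10.91, 11.04 and 11.13 in CDKL1 shRNA arrays. It rose by 0.41 (SE 0.063, limma adjusted p = 0.0055). COX14, also of complex IV, rose by 0.26, as did SDHAF2, which helps attach flavin to complex II. NDUFAF5, a methyltransferase of complex I assembly, read 9.49, 9.56 and 9.51 in control and 9.24, 9.25 and 9.25 in CDKL1 shRNA arrays and fell by 0.28 (SE 0.042, limma adjusted p = 0.0055). These 4 genes were called in each of the 6 fits with 1 array left out and in none with the ACTB covariate.

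Of 14 regulators of respiratory chain genes 1 rose and 1 fell, both of them relatives of enzymes that methylate ribosomal RNA. TFB2M, a factor that lets the mitochondrial RNA polymerase start, read 10.74, 10.78 and 10.73 in control and 11.21, 11.13 and 11.13 in CDKL1 shRNA arrays, and rose by 0.41 (SE 0.045, limma adjusted p = 0.0016). TFB1M, which methylates mitochondrial ribosomal RNA, read 9.81, 9.87 and 9.80 in control and 9.49, 9.53 and 9.47 in CDKL1 shRNA arrays, and fell by 0.33 (SE 0.044, limma adjusted p = 0.0033). Each has 1 probe set. NRF1 (-0.12), GABPA (-0.01), TFAM (-0.11), ESRRA (-0.05), PPRC1 (0.13) and PPARGC1B (-0.14) did not pass, and PPARGC1A lay within the background range. All 4 probe sets of NRF1 had a negative sign, and 1 of them was called lower in the fit over all probe sets.

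Of 14 TCA cycle genes 4 fell and 0 rose, with a median log2 change of -0.02. They were DLST (-0.23), SUCLG2 (-0.22), SUCLG1 (-0.20), which act at consecutive steps around succinyl-CoA, and the citrate synthase gene CS (-0.17), which turned to 0.02 when its 3 probe sets were averaged. Of 75 mitochondrial ribosomal protein genes 7 rose and 6 fell, with a median of 0.03. MRPL37 had the largest change, a fall of 0.59 (SE 0.042, limma adjusted p = 0.000309), and MRPL24 fell by 0.26, while MRPL33 rose by 0.34 and MRPL55 by 0.30. Of 23 import genes 3 rose and 0 fell, namely TIMM10B (0.38), TIMM8A (0.21) and TOMM6 (0.18), with a median of 0.06. The median over all genes was -0.01 in the same fit, and the groups' difference in ACTB signal applies to these genes as well.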

How the data were processed

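Total RNA of 6 DLD1 samples was hybridised to Affymetrix arrays. The deposited log2 values were made by the authors with RMA, per the submitters' processing notes. RMA corrects background, quantile-normalises between arrays and summarises each probe set. Its version was not given in the sources used here. Of 49395 probe sets, 102 were controls and 44988 had 1 gene symbol in the platform annotation (44961 with an Entrez identifier in RefSeq, GRCh38.p14, and 0 symbols updated). A further 1832 had several symbols and 2473 had none, and named no gene.

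Group was the single term of the model, fitted over 18132 genes with limma 3.58.1 (lmFit, eBayes, two-sided) in R 4.3.3, with Benjamini-Hochberg adjustment and a threshold of 0.05, and checked on simulated data. All 49293 non-control probe sets were fitted likewise. No filter on dim genes was applied. The number of arrays limits the precision. The members, gene lists and naming rule were chosen with earlier results of these data known. The rule named called subunits, the extremes of each complex, subunits fixed for their role and up to 4 called genes per list. Promoter letters were searched on both strands in Python 3.11.15. Alternatives were a replicate block, leaving out each array, scaling, choice of probe set, a level filter, the ACTB covariate and, chosen after seeing the data, a prior variance that follows the level.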

Additional observations from a re-analysis of the deposited data

How the results depend on the processing

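All counts are of genes at a limma adjusted p under 0.05 with 1 choice changed. Over all genes the count was 1803 with the replicate block and 219 with the ACTB covariate, where 3501 had an unadjusted p under 0.05. With 1 array left out it was 1633 to 2399. It was 2770 after subtraction of array medians, 3231 after quantile normalisation and 2948 with probe sets averaged. Without probe sets of suffix _s or _x it was 2377 of 16701. Of the 79 subunit genes, 2 were called with the replicate block, 2 after subtraction of array medians, 4 of 66 without probe sets of suffix _s or _x, 17 among genes above the median gene, 21 with the prior variance that follows the level, 0 with the ACTB covariate (7 at an unadjusted p under 0.05) and 1 to 3 with 1 array left out. In complex I the counts were 1 with the block, 1 after median subtraction, 1 without those suffixes, 10 among brighter genes, 13 with the trended prior, 0 with the covariate (3 unadjusted) and 0 to 2 with 1 array left out. In complex III they were 0 with the block (1 unadjusted), 0 after median subtraction (2 unadjusted), 2 with probe sets averaged, 2 among brighter genes, 2 with the trended prior, 0 with the covariate (0 unadjusted) and 0 to 0 with 1 array left out. In complex IV they were 1 with the block, 1 after quantile normalisation, 1 after median subtraction, 1 with probe sets averaged, 1 without those suffixes, 0 with the covariate (4 unadjusted) and 1 to 1 with 1 array left out. In ATP synthase they were 0 with the block (3 unadjusted), 3 after quantile normalisation, 0 after median subtraction (3 unadjusted), 3 with probe sets averaged, 3 among brighter genes, 3 with the trended prior, 0 with the covariate (0 unadjusted) and 0 to 0 with 1 array left out. Averaging probe sets turned the log2 change of NDUFC2 to 0.0231 and of CS to 0.0180, and without those suffixes CS was at 0.0714. The cause of these shifts was not tested. Same-numbered arrays did not deviate together (r = -0.121 to 0.070). This correlation cannot show whether they shared an infection or culture, so whether the numbers pair the samples is not known. The block rests on the shared number alone. Of the comparisons of a named gene with an alternative, 399 kept sign and side of the threshold, 114 lost and 9 gained a call, 11 changed sign without a call and 3 called values reversed. All 7 called subunits kept their sign with any 1 array left out.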
